A study of Mus musculus with 8 samples.

Results

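Bone morphogenetic protein (BMP) ligands, their receptors and the decoy receptor Bambi were read in palatal shelves of mouse embryos, the tissue plates that close the roof of the mouth, at embryonic day 14.5. The members are 10 genes given by symbol: the ligands Bmp2, Bmp4, Bmp5, Bmp6 and Bmp7, the type I receptors Bmpr1a, Bmpr1b and Acvr1, the type II receptor Bmpr2, and Bambi. All probe sets annotated with exactly 1 of these symbols were taken, which gave 10 of the 18193 genes and 25 of the 45037 probe sets of the array, and 21 of the 25, with every gene among them, passed the filter on low signals. The study compared 4 samples labelled R26Pax3/Pax3 with 4 wild type littermates, all on a cross of C57BL/6 and SV129, by Affymetrix microarrays. Pax3 is a transcription factor with a paired domain and a homeodomain, active in neural crest and muscle progenitors, and R26 is the usual short form of the Rosa26 locus. The labels name no driver line, do not say which cells expressed the allele, and do not say whether a sample held 1 embryo or several, so each p-value reflects only how far these samples spread, which may be technical. Arrays are called by the replicate numbers of the labels.

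BMPs are secreted dimers of the TGF-beta superfamily that bind a complex of type I and type II serine-threonine kinase receptors. The type II receptor phosphorylates the type I receptor, which in turn phosphorylates Smad1, Smad5 and Smad9, and these enter the nucleus with Smad4. Bambi resembles a type I receptor but lacks a kinase domain, and its transcription is itself raised by BMP signals in several tissues. In the palate, BMP signals pass between epithelium and mesenchyme during growth of the shelves, and later they act in bone formation.

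Values are linear MAS5 signals, the brightness of a probe set after background correction and scaling of each array. The array medians lay between 43.5 and 44.8. A signal at or below the median is treated here as one that cannot be told from background, a working rule set without detection calls. Signals of different probe sets are not comparable with each other, so no gene's level is ranked against another's. Where the signals of a marker list are summed, the same sum is compared between arrays, and its brightest probe sets weigh most. All 12 palatal mesenchyme markers (among them Osr2, Shox2, Meox2 and Tbx22) and all 18 measured epithelium markers lay above the median on every array, as the labelled tissue holds. On its brightest probe set Pax3 itself had a mean of 619 ± 88.8 in the mutant arrays and 162 ± 14.6 in the wild type arrays (SD, n = 4 each, log2 fold change 1.83, SE 0.113, limma adjusted p = 1.7e-05). Its second probe set had 1.96 (limma adjusted p = 0.00011), and the dimmest had -0.29 (82.5 ± 21.5 against 103 ± 14.0, limma adjusted p = 1). In bulk tissue, fewer cells of a type and less RNA per cell cannot be told apart.

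The promoters of Bmp4 and Bmp5 are shown because Bmp4 had the highest difference among the brightest probe sets of the members and Bmp5 the lowest among the ligands. The stretches are the 250 bases before the RefSeq transcript start on build GRCm38.p6, chr14:46390670-46390919 on the minus strand for Bmp4 and chr9:75775115-75775364 on the plus strand for Bmp5. Capitals mark ATTA, in either orientation, the core that homeodomains such as that of Pax3 bind.
Bmp4: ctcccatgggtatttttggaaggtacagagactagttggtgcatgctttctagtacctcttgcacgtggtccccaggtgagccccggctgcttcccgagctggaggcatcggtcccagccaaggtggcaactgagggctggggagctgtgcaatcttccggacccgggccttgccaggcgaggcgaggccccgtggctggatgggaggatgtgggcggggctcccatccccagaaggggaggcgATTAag
Bmp5: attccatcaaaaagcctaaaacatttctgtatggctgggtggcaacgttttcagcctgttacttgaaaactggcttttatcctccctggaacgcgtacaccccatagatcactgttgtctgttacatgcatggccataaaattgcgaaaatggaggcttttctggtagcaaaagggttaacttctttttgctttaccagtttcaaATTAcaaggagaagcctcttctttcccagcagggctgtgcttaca
The 1 match in Bmp4 ended 3 bases before the transcript start and that in Bmp5 ended 42 bases before it. RefSeq promoters matched 7 of the 10 genes, with 9 starts. Of these, 3 held ATTA or its complement TAAT (54.9% of all 32851 promoters of this length did), and 0 held GTCACGC or its complement, a core bound by paired domains (1.78% of all). A match is a description of the letters in this window only.

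No member changed beyond the threshold. Of the 21 tested member probe sets, 0 passed a limma adjusted p of 0.05 over all 27021 probe sets tested, of which 0.0148% were called, 0.0074% higher and 0.0074% lower. At an unadjusted p under 0.05 there were 4 of 21, against 4.86% of all. They were 2 higher (Bmp4 and a dim probe set of Bmpr2, against 2.43% of all) and 2 lower (Bambi and 1 of Bmp5, against 2.44%). The groups did not overlap on 2 of the 21, against 2.73% of all, with Bmp4 higher (1.39% of all) and Bambi lower (1.34%). Without wild type replicate 2 the count was 6, without wild type replicate 8 or R26Pax3/Pax3 replicate 1 it was 4, and 4.73% to 5.98% of all did not overlap with any 1 array left out. Both were known to differ from earlier results of these data when the members were chosen, so the counts are no independent support. Of the 21, 11 had higher means in R26Pax3/Pax3 and 10 lower, with a median log2 fold change of 0.03, against 50.3% higher and a median of 0.00 over all.

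**Figure D1:**
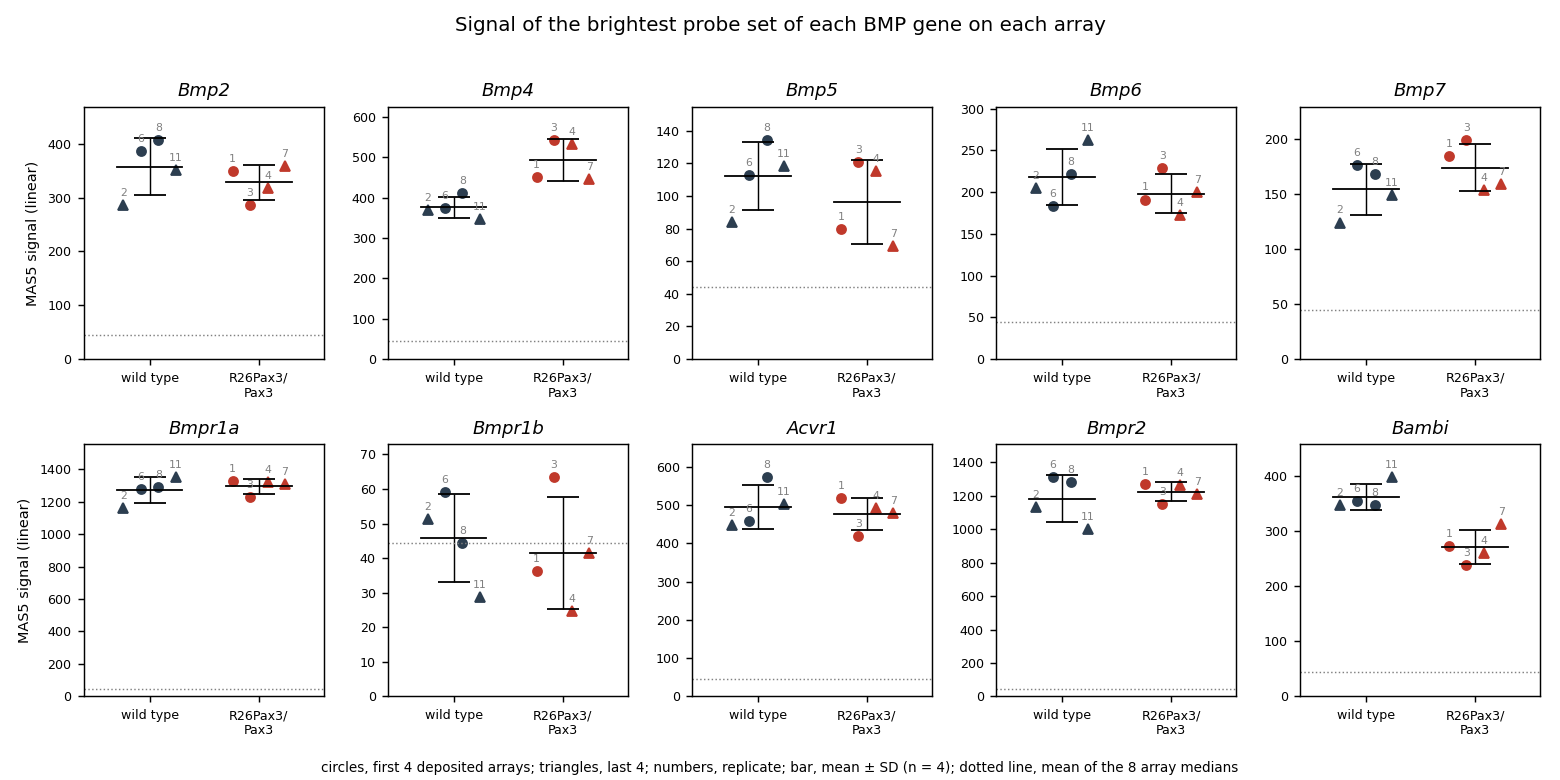
MAS5 signal (linear, vertical axis) of the brightest probe set of each of the 10 genes on the 8 arrays, by genotype, with mean and SD of 4 arrays. All 4 R26Pax3/Pax3 arrays lie above wild type for Bmp4 (445 to 543 against 348 to 411) and below it for Bambi (239 to 314 against 348 to 399), and the genotypes overlap for the other genes.

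Among the ligands, Bmp4 had the highest difference. Bmp4 is expressed in anterior palatal mesenchyme and is required for growth of that region. Its only probe set (1422912_at) read 450, 543, 534 and 445 in R26Pax3/Pax3 replicates 1, 3, 4 and 7. In wild type replicates 2, 6, 8 and 11 it read 370, 375, 411 and 348. The lowest mutant array thus lay above the highest wild type array, and replicates 3 and 4 were the brightest. The means were 493 ± 52.5 and 376 ± 26.2 (SD, n = 4 each), a ratio of 1.31. On the log2(signal + 16) scale the difference was 0.37 (SE 0.0956, 95% interval 0.16 to 0.58, limma adjusted p = 0.602), the 93rd smallest p of 27021. It was 0.32 within the first 4 deposited arrays and 0.43 within the last 4, each of which held 2 arrays of each genotype, and 0.33 to 0.42 with any 1 array left out.

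Bmp2, the ligand closest to Bmp4 in sequence, did not follow it. Its probe set read 350, 287, 317 and 359 in R26Pax3/Pax3 replicates 1, 3, 4 and 7, and 286, 387, 407 and 350 in wild type replicates 2, 6, 8 and 11. The groups overlapped, and the wild type arrays included both the lowest and the 2 highest values. The log2 fold change was -0.11 (SE 0.118, limma adjusted p = 1), and its 95% interval reached from 0.774-fold to 1.11-fold. The difference had opposite signs in the deposition sets, -0.31 in the first and 0.09 in the last.

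Bmp5, Bmp6 and Bmp7 form the other subgroup of these ligands. The 3 probe sets of Bmp5 all had lower means in R26Pax3/Pax3. The brightest (1455851_at) read 79.9, 121, 115 and 69.3 in mutant replicates 1, 3, 4 and 7 and 83.9, 113, 134 and 118 in wild type replicates 2, 6, 8 and 11, with overlap. On the second (1421283_at) the wild type arrays were tightly grouped, at 54.1, 56.6, 60.7 and 56.5. The mutant arrays read 26.4, 55.8, 40.7 and 33.1 there. Mutant replicate 3 alone reached the wild type range, and the other 3 mutant arrays read under their own array medians. The log2 fold changes were -0.21 (SE 0.177), -0.43 (SE 0.167) and -0.21 (SE 0.156) from the brightest to the dimmest, with limma adjusted p of 0.988 for the second and 1 for the others. Within the deposition sets they were -0.28 and -0.13, -0.44 and -0.43, and -0.13 and -0.30. The size of the second moved with the pseudocount, from -0.59 with 1 to -0.24 with 64, and with 3 of 4 mutant arrays under the array median it cannot be read exactly. The third probe set lay above the median of its array on 1 of 8 arrays only, so its size cannot be read either.

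Bmp6 read 198 ± 23.6 against 218 ± 33.6 (SD, n = 4 each), with 172 to 229 in R26Pax3/Pax3 and 183 to 263 in wild type. The log2 fold change was -0.12 (SE 0.123, limma adjusted p = 1, interval 0.761-fold to 1.11-fold), with 0.05 from the first 4 deposited arrays and -0.30 from the last 4. Bmp7, which is expressed in oral epithelium as well as in mesenchyme, had higher means on all 3 probe sets. The brightest read 174 ± 21.5 against 155 ± 23.2, with arrays from 154 to 200 and from 124 to 176. Its log2 fold change was 0.16 (SE 0.127, limma adjusted p = 1, interval 0.922-fold to 1.35-fold). The other 2 had 0.06 (SE 0.157) and 0.18 (SE 0.166), and the first of these gave 0.19 from the first 4 deposited arrays, -0.07 from the last 4, and a negative value without R26Pax3/Pax3 replicate 1 or wild type replicate 6. The dimmest, at 52.5 to 70.2 against 36.6 to 70.6, lay near the array median. The ligands thus did not share a direction. Of their 9 tested probe sets 4 were higher and 5 lower.

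**Figure D2:**
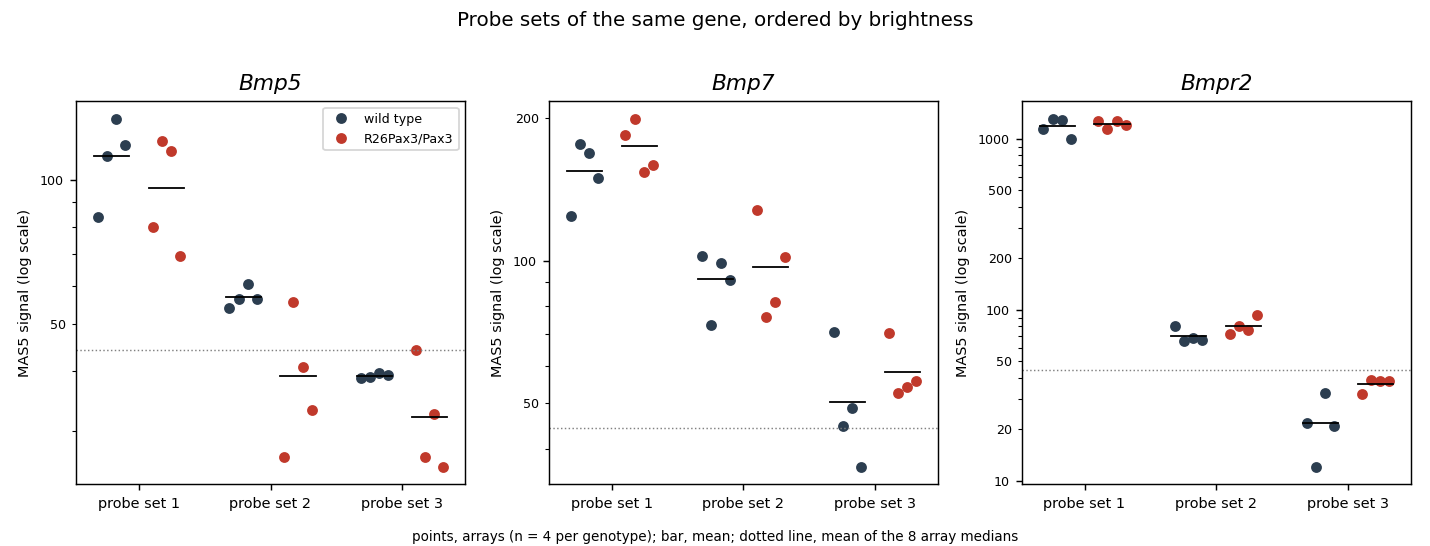
MAS5 signal (log scale, vertical axis) of each probe set of Bmp5, Bmp7 and Bmpr2 on the 8 arrays, ordered by brightness, with bars at the means of 4 arrays. The second probe set of Bmp5 shows 4 wild type arrays between 54.1 and 60.7 and mutant arrays between 26.4 and 55.8, and the dimmest probe set of Bmpr2 lies below the dotted array median on all arrays.

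The receptors showed narrower differences where their signals were bright. Bmpr1a encodes the type I receptor ALK3, which binds Bmp2 and Bmp4. Its brightest probe set (1425492_at) read 1326, 1227, 1319 and 1307 in R26Pax3/Pax3 replicates 1, 3, 4 and 7 and 1160, 1276, 1291 and 1350 in wild type replicates 2, 6, 8 and 11. The mutant arrays lay within the wild type range. The log2 difference was 0.03 (SE 0.0719, limma adjusted p = 1), with a 95% interval of 0.915-fold to 1.14-fold. The next 3 probe sets had 0.13, -0.02 and -0.08, all with intervals across 0. The fifth (1451729_at) had 0.32 (SE 0.280), but it was above the median on 1 of 8 arrays, and without wild type replicate 6, the dimmest of the 8 arrays, it was 0.01. The sixth, at 2.20 to 15.2, was left out by the filter.

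Acvr1, or ALK2, is the type I receptor that binds Bmp6 and Bmp7. Its brightest probe set (1448460_at) read 477 ± 42.5 against 495 ± 57.3 (SD, n = 4 each), which is -0.05 on the log2 scale (SE 0.101, limma adjusted p = 1, interval 0.83-fold to 1.13-fold). The second (1416786_at) read 239, 272, 202 and 186 in R26Pax3/Pax3 replicates 1, 3, 4 and 7. In wild type replicates 2, 6, 8 and 11 it read 231, 188, 190 and 237. The genotypes were apart within each deposition set but in opposite directions, with 0.40 in the first and -0.25 in the last, and the pooled log2 fold change was 0.07 (SE 0.130). The third probe set, at 11.8 to 30, was left out by the filter.

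Bmpr1b, or ALK6, is the type I receptor of early cartilage. Its 1 tested probe set (1437312_at) lay above the array median on 4 of 8 arrays. It read 36.3, 63.4, 24.7 and 41.6 in R26Pax3/Pax3 replicates 1, 3, 4 and 7, and 51.2, 59, 44.4 and 28.8 in wild type replicates 2, 6, 8 and 11. Both groups spread on either side of the median, with a log2 difference of -0.12 (SE 0.219, limma adjusted p = 1, interval 0.66-fold to 1.28-fold). The other 2 probe sets, at 1.80 to 22.7, were left out by the filter, so a level of Bmpr1b was not measured with any precision.

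Bmpr2 encodes the type II receptor specific to BMPs. Its brightest probe set (1434310_at) read 1273, 1148, 1266 and 1212 in R26Pax3/Pax3 replicates 1, 3, 4 and 7 and 1136, 1311, 1281 and 1004 in wild type replicates 2, 6, 8 and 11. The wild type arrays spread more widely, with an SD of 12% of the mean against 4.73%, and the mutant arrays lay inside their range. The log2 fold change was 0.06 (SE 0.0912, limma adjusted p = 1, interval 0.906-fold to 1.19-fold), with -0.10 within the first and 0.21 within the last 4 deposited arrays. On the second the means were 80.4 ± 8.97 and 70.1 ± 6.64, a log2 difference of 0.16 (SE 0.121). The dimmest (1441652_at) read 32.1, 38.9, 38.5 and 38.2 against 21.7, 12, 32.6 and 20.9, which is 0.51 on the log2 scale (SE 0.181, limma adjusted p = 0.968). On all 8 arrays it read under the array median, so neither its size nor its direction is read as a change in Bmpr2.

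Bambi was the member lower in R26Pax3/Pax3 on every array. Its only probe set (1423753_at) read 274, 239, 261 and 314 in mutant replicates 1, 3, 4 and 7. In wild type replicates 2, 6, 8 and 11 it read 348, 355, 349 and 399. The highest mutant array lay below the lowest wild type array, and 3 of the wild type arrays were within a few units of each other. The means were 272 ± 31.6 and 362 ± 24.2 (SD, n = 4 each), with wild type 1.33-fold higher. The log2 fold change was -0.40 (SE 0.0993, 95% interval -0.62 to -0.18, limma adjusted p = 0.573), the 81st smallest p of 27021. The first 4 deposited arrays alone gave -0.44 and the last 4 gave -0.36, with -0.47 to -0.34 with any 1 array left out. As for Bmp4, the adjusted p was far above the threshold.

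**Figure D3:**
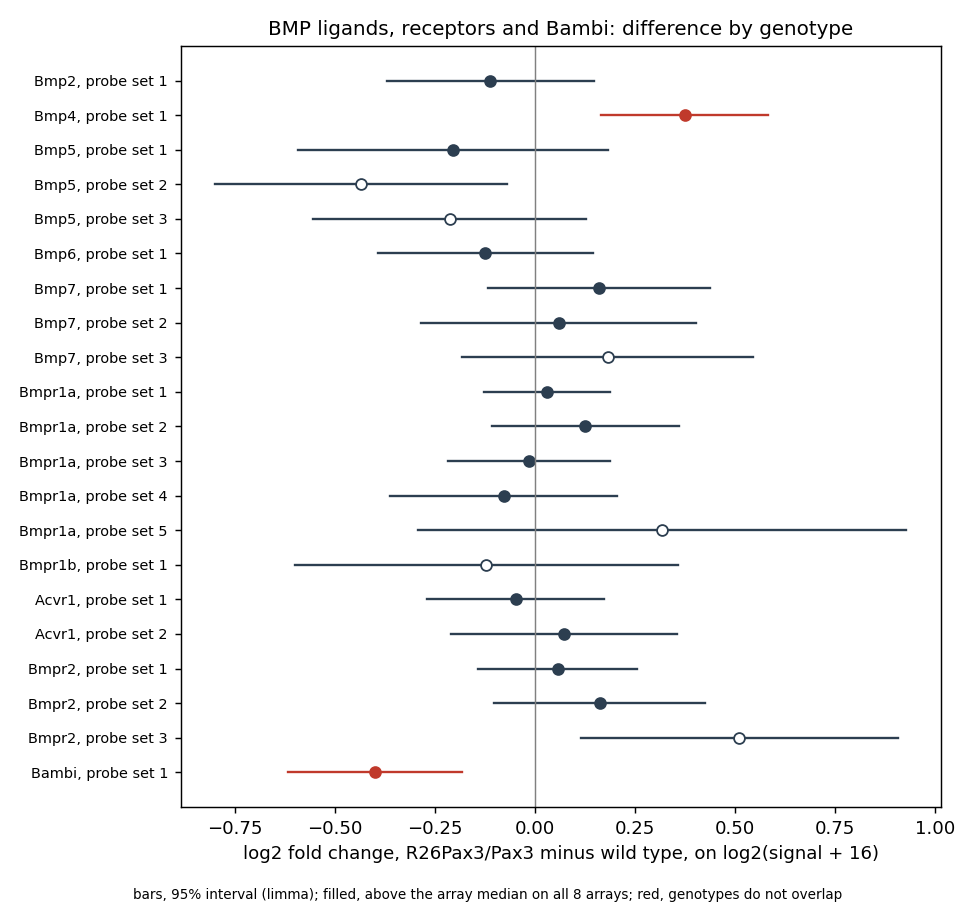
Log2 fold change (horizontal axis, R26Pax3/Pax3 minus wild type, on log2(signal + 16)) of the 21 tested member probe sets with 95% limma intervals; open points lie at or below the array median on at least 1 array. Bmp4 at 0.37 and Bambi at -0.40 are those whose genotypes do not overlap, and the brightest probe sets of Bmpr1a, Acvr1 and Bmpr2 lie within 0.06 of 0.

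The genes whose pattern over the 8 arrays was most like that of Bmp4 were sought over 22767 probe sets with 1 symbol, by the root mean square difference of log2 profiles centred on their own means. The nearest was Itga6, the integrin subunit of hemidesmosomes (396 ± 38.8 against 318 ± 29.9, SD, n = 4 each), with a root mean square difference of 0.0629, where the profile of Bmp4 varied by 0.216 about its own mean. Its other probe set had a log2 fold change of 0.21, on the same side. Srpk2, a kinase of splicing factors, and Mbp, known for myelin, followed at 0.0633 and 0.0731. The 5 other probe sets of Srpk2 had log2 fold changes of -0.01 to 0.24, 4 of them above 0, and the 2 others of Mbp had -0.09 and 0.19. For Bambi the nearest were the neural crest cadherin Cdh7 (20.9 ± 3.58 against 32.6 ± 4.7) and Pla2g2c, a secreted phospholipase (20.2 ± 3.52 against 33.3 ± 4.25), at 0.0623 and 0.0642. Both means of each lay below the array medians. The third was Trnt1, which adds the terminal CCA to transfer RNAs (107 ± 4.6 against 139 ± 10.7, 0.0902), and its other probe set had a log2 fold change of 0.03. None of these probe sets passed the test (limma adjusted p of 0.827 to 0.995).

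In the rest of the BMP pathway, 44 of 59 listed symbols were tested on their brightest probe sets and 0 passed in either direction (limma, adjusted over all probe sets). At an unadjusted p under 0.05 there were 3, against 4.86% of all probe sets, with Sostdc1 higher and Pcsk6 and Dlx5 lower. The groups did not overlap on 2 of the 44, Pcsk6 and Dlx5, against 2.73% of all probe sets. The 44 were balanced at 22 higher and 22 lower, with a median log2 fold change of -0.01.

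The proteases that mature BMP precursors or cleave their antagonists included the lower of these values. Pcsk6, the proprotein convertase PACE4, which cleaves precursors of the TGF-beta superfamily, read 229 to 290 in R26Pax3/Pax3 and 312 to 443 in wild type, with no overlap. Its means were 250 ± 27.5 and 358 ± 58.2 (SD, n = 4 each), which is -0.49 on the log2 scale (SE 0.119, limma adjusted p = 0.573). Furin, the convertase best known for BMP precursors, read 185 ± 37.9 against 174 ± 21 (log2 fold change 0.07, limma adjusted p = 1). Tll1, a tolloid protease that cleaves chordin, lay above the array median on 1 of 8 arrays. Of the 6 proteases tested, 2 had higher and 4 lower means, with a median of -0.03.

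Of 11 secreted antagonists tested, 6 had higher and 5 lower means, with a median log2 fold change of 0.01. Sostdc1, which binds BMPs and also acts on Wnt signals, had the highest value, 0.83 (SE 0.212, limma adjusted p = 0.602), with 1158 to 1684 in R26Pax3/Pax3 and 557 to 1217 in wild type, and its other probe set had 0.73. Fstl1, a follistatin-like glycoprotein, read 4898 ± 140 against 4402 ± 398 on its brighter probe set (log2 fold change 0.16, limma adjusted p = 1) and had -0.05 on the other. Noggin (Nog), the classical antagonist, was at or below the array median on all 8 arrays. The 3 other ligands tested had values of -0.19 to 0.19, and Bmp8a and Gdf2, with the smallest p among them, were above the median on 1 and 2 of 8 arrays.

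Of 7 other receptors and co-receptors tested, 3 had higher and 4 lower means. Eng, or endoglin, the co-receptor of vascular endothelium, read 173 ± 25.5 against 149 ± 14.8 (log2 fold change 0.19, limma adjusted p = 1), and its other probe set had 0.33 (limma adjusted p = 0.995). Hjv, a co-receptor of BMPs known from muscle and liver, read 41.1 ± 19.4 against 55.2 ± 14.2 (-0.36, limma adjusted p = 1). Of 7 Smads and Smurf ubiquitin ligases tested, 5 had higher and 2 lower means, between -0.09 and 0.16. Smad4, the partner shared by BMP and TGF-beta signals, had 0.10 and Smurf2, which marks Smads and receptors for degradation, had 0.09 (limma adjusted p = 1 each). Their other probe sets lay on both sides of 0, at 0.03 and -0.02 for Smad4 and at 0.06 and -0.09 for Smurf2.

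The response genes did not share a direction. Of 10 tested, 5 had higher and 5 lower means, with a median of 0.01. Dlx5, a homeobox gene of osteoblasts and jaw patterning, read 206 to 231 in R26Pax3/Pax3 and 245 to 278 in wild type, which is -0.26 on the log2 scale (SE 0.0882, limma adjusted p = 0.918). Msx2, a homeobox gene of skull and tooth, had -0.40 (SE 0.202, limma adjusted p = 1), while its relative Msx1 had 0.45 (limma adjusted p = 1). For Msx1 this is the brighter of 2 tested probe sets, which overlapped at 699 to 1182 against 387 to 885. The inhibitors of differentiation Id1, Id2, Id3 and Id4 had values between -0.12 and 0.10 on their brightest probe sets. Other probe sets of Msx1, Id2 and Id4 are not given here.

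**Figure D4:**
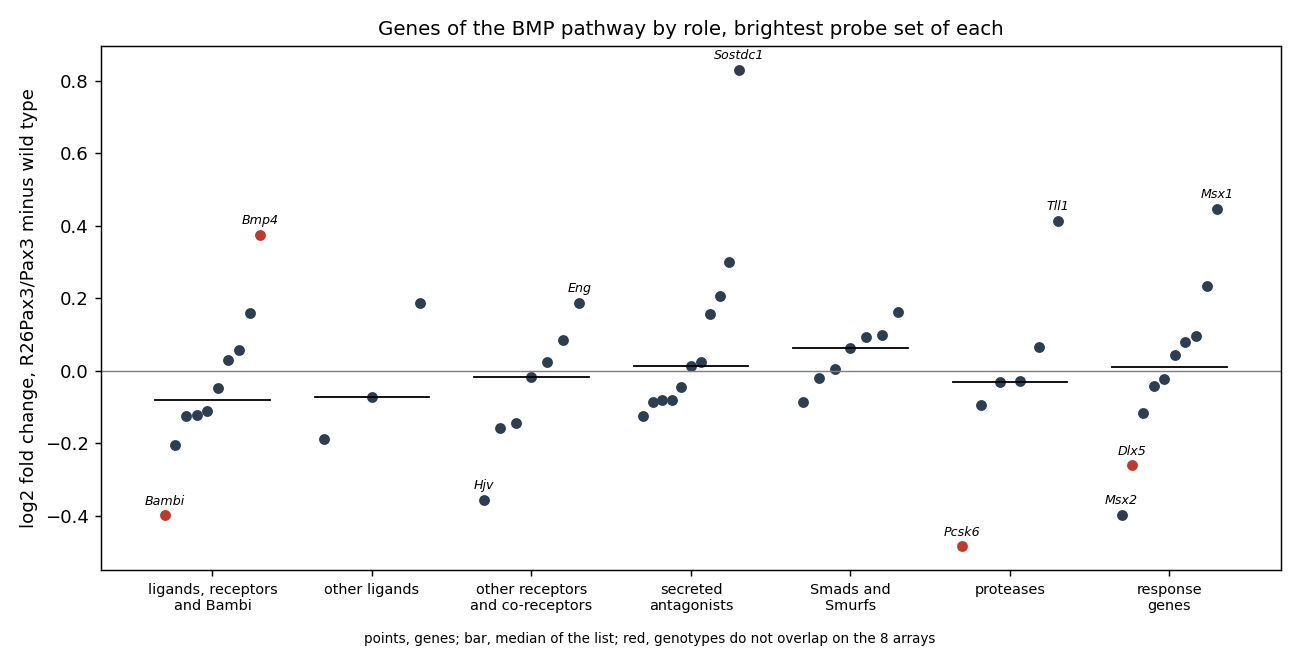
Log2 fold change (vertical axis, R26Pax3/Pax3 minus wild type) of the brightest probe set of each tested gene of the BMP pathway, by role, with a bar at each list's median. The medians lie between -0.08 and 0.06, and Sostdc1 at 0.83 and Pcsk6 at -0.49 are the farthest from 0.

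Markers of tissues within the shelves also differed in mean between the genotypes, and none of their probe sets was called. Of 18 epithelium markers, 15 had higher means in R26Pax3/Pax3, with a median log2 fold change of 0.23. At an unadjusted p under 0.05 there were 7 of 18, all higher, against 2.43% of all probe sets tested. Krt17, Sfn and Pkp3, genes of keratinocytes, were higher without overlap between the genotypes, as were 1.39% of all. The 3 lower markers were Krt8 (-0.03), Krt18 (-0.06) and Grhl2 (-0.03), and Epcam (0.03) and Krt19 (0.04) also lay near 0. The summed signal of the 18 markers was 9920 in mutant replicate 3, 12392 to 13082 in the other mutant arrays and 9243 to 10853 in wild type. The sums thus overlap through mutant replicate 3 alone. Osteoblast markers were lower for 8 of 8, with a median of -0.40, and 4 of 8 had an unadjusted p under 0.05, against 2.44% of all. Ifitm5 and Omd, genes of bone-forming cells, were lower without overlap, as were 1.34% of all. The sums, which Col1a2 and Ibsp dominate, were 17088 to 19615 against 17980 to 22358. Palatal mesenchyme markers, which include Col1a1, had 5 higher and 7 lower, with sums of 22119 to 25767 against 24099 to 29221. Neuron markers were higher for 8 of 8 (median 0.82, sums 1118 to 1950 against 498 to 2117) and skeletal muscle markers lower for 11 of 11 (median -0.60, sums 900.1 to 6665 against 2864 to 7713). The highest neuron sum was that of wild type replicate 6, and wild type replicates 2 and 11 had the lowest (498 and 520). The muscle sum was 900.1 in mutant replicate 7 and 3273 to 6665 in the other mutant arrays. Of the muscle markers, 0 had an unadjusted p under 0.05. Cartilage markers had 7 of 8 lower (sums 736 to 1870 against 1033 to 2602). Endothelium markers had 6 of 8 higher, with a median of only 0.03 (sums 1437 to 1689 against 1447 to 1554). Blood and leukocyte markers had 4 of 5 higher, with a median of 0.07 (sums 5526 to 7765 against 5414 to 6152). Of the tooth germ markers 3 of 4 tested were lower (sums 463 to 684 against 555 to 743). The enamel and dentin genes Enam, Amelx and Dspp were at or below the array median on all 8 arrays. The enamel gene Ambn lay above the median on all 8, with 50.4 to 85.2 in R26Pax3/Pax3 and 97.1 to 120 in wild type. Its genotypes did not overlap (log2 fold change -0.72, SE 0.151, limma adjusted p = 0.403), and 1.34% of all were lower without overlap. Lef1, the tooth germ marker with a higher mean, had 0.32 and lay above the median on 5 of 8 arrays. At an unadjusted p under 0.05 there were 3 of 8 neuron markers, 2 of 12 palatal mesenchyme markers and 1 each of the cartilage, blood and tooth germ lists. The share over all probe sets tested was 4.86% in either direction. The lists were chosen with earlier results of these data known, so these counts are no independent support. The markers' part in the differences of Bmp4 and Bambi was not tested.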

How the data were processed

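RNA from 8 samples of palatal shelves (4 R26Pax3/Pax3, 4 wild type) was measured on Affymetrix arrays, from 6 µg of total RNA each, per the labels. The authors deposited linear signal intensities. The submitters' processing notes name MAS5, and its version is not given in the sources used here. MAS5 scales each array to a common target, and the mean without the lowest and highest 2% was 149 to 150 on every array. A shift common to most genes would be lost by it. Detection calls were not used here. No 2 arrays held the same values, and array pairs correlated at 0.974 to 0.982.

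Groups came from the sample titles. After removal of 64 control probe sets, signals were taken as log2(signal + 16), and probe sets above the 40th percentile of mean signal were tested (27021). The test was limma 3.58.1, run in R 4.3.3 (lmFit, eBayes with an intensity trend, no covariates), with Benjamini-Hochberg adjustment and a threshold of 0.05. Fold changes on this scale understate those of dim probe sets. The number of arrays limits the precision. Genes were named from the array's annotation, where 34945 probe sets had 1 symbol, 932 several and 9160 none. No member symbol stood on a probe set with several symbols. Promoters came from RefSeq.

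The members and lists were chosen with earlier results of these data known. Named genes were all members, the 2 of each pathway list with the smallest p and the 3 most like Bmp4 and Bambi, without sex-linked genes. Furin, Nog, Msx1, the Id genes and all genes named from the marker lists fall outside that rule and were picked from the lists after their values were seen. The fit was tested on simulated data for this comparison over 27021 probe sets, 50 changed at each size. It found 62% of the probe sets with a log2 change of 0.5 and 98% of those with a change of 1. It also made 8 false calls. The simulated noise followed a spread smoothed on intensity, and more probe sets were changed than the 4 called on the real arrays. The shares found therefore cannot be carried over to these data, where Krt17 at 0.96 had a limma adjusted p of 0.462. Alternatives were the pseudocount, the filter, quantile normalization, the intensity trend, the deposition set (first or last 4 accessions) as a block or alone, and each replicate left out.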

Additional observations from a re-analysis of the deposited data

Results flagged for a closer look

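Within groups of 4 arrays, 3 of 50 groups of member signals held an array far from the others by Dixon's test, where chance flags about 1 in 20. Bambi read 398.5 in wild type replicate 11, against 348 to 355 in the other 3. Bmpr2 read 80.0 in wild type replicate 2 on its second probe set, against 65.7 to 67.9, and 32.1 in R26Pax3/Pax3 replicate 1 on its dimmest, against 38.2 to 38.9. Without wild type replicate 11 the log2 fold change of Bambi was -0.35.

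On 2 of the 21 tested member probe sets, the genotypes were apart in both deposition sets but in opposite directions, a pattern of 10.6% of all tested probe sets. The brightest probe set of Bmpr2 differed by -0.10 in the first and by 0.21 in the last 4 deposited arrays. The second probe set of Acvr1 differed by 0.40 and by -0.25. These differences between the sets were not tested.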

How the results depend on the processing

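Across the 7 other settings of pseudocount, filter, normalization, trend and block, 0 member probe sets were called (limma) and 2 did not overlap, Bmp4 and Bambi in each. Only quantile normalization could have altered the overlap, because the other settings keep the order of a probe set's values. The log2 fold change lay between 0.34 and 0.39 for Bmp4 (limma adjusted p 0.519 to 0.705) and between -0.42 and -0.35 for Bambi (limma adjusted p 0.425 to 0.698). Filter, trend and block leave the fold change as it is, so only the pseudocount and quantile normalization could move it. With 1 array left out, calls over all probe sets numbered 4 to 9, with 9 without R26Pax3/Pax3 replicate 3, and calls among members remained 0. The non-overlapping member probe sets then numbered 2 to 6, with 6 without wild type replicate 2, and 4 without wild type replicate 8 or R26Pax3/Pax3 replicate 1, while 4.73% to 5.98% of all probe sets did not overlap. Of 168 values with 1 array left out, 10 changed sign, none of them a called value. The ranges were -0.065 to 0.15 for Bmp7 on its second probe set, -0.013 to 0.059 for the brightest of Bmpr1a and -0.061 to 0.035 for 1425493_at of the same gene, -0.29 to 0.031 for Bmpr1b, -0.019 to 0.11 for the brightest of Bmpr2, and -0.094 to 0.022 and -0.018 to 0.15 for the first and second of Acvr1. Of 42 values within a deposition set, 8 changed sign. In the first set these were Bmp6 at 0.051, Bmpr1a at -0.0091 and Bmpr2 at -0.099. In the last set they were Bmp2 at 0.088, Bmp7 at -0.069, 1425493_at of Bmpr1a at 0.014, and Acvr1 at 0.033 and -0.25. The cause was not tested. No paired analysis was possible because the sample titles name no litter and the genotypes share no replicate number. An effect of litter was therefore not modelled. Dim probe sets limit what can be read of Bmpr1b and of the dimmest probe sets of Bmp5 and Bmpr2.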
